A study of Homo sapiens with 9 samples.

Results

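Gastrin-releasing peptide (GRP) is a small secreted peptide of the bombesin family, and GRPR is the G protein-coupled receptor through which it acts. The ligand and receptor genes were chosen by their levels over the 3 genotypes of these same libraries: GRP for being low in heterozygous cells, and GRPR for being higher with each copy of CHD7 lost. They are 2 of the 26240 genes in the count table, and both passed the filter on low counts that left 16837 genes. Because the choice used these levels, the values of GRP and GRPR are given as a description and carry no p-value.

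The RNA sequencing libraries came from definitive endoderm, the embryonic layer that gives rise to gut, lung, liver and pancreas, derived from the established human embryonic stem cell line H9. CHD7 encodes a chromatin remodeler. The 3 genotypes were wild type (CHD7 intact), heterozygous and homozygous for a CRISPR/Cas9 deletion of CHD7, with 3 libraries each and no other treatment that separates them in the labels. The labels name neither the clones behind each genotype nor separate cultures or differentiation days, so the spread behind each p-value may be a technical one, and clone and genotype cannot be told apart. All values come from bulk RNA, in which fewer cells of a type and less RNA per cell cannot be told apart.

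GRP is released by neuroendocrine cells of the lung and gut and by neurons. Its precursor is cut by prohormone convertases, trimmed by a carboxypeptidase and amidated at its end before it can act. GRPR signals mainly through Gq and phospholipase C-beta, which releases calcium and activates protein kinase C and the ERK pathway, and it is then desensitised by receptor kinases and arrestins. Neuromedin B (NMB) is the related human peptide, with its own receptor NMBR, and BRS3 is the third receptor of the family.

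GRP (ENSG00000134443) lies on the plus strand of chromosome 18, from 59220168 to 59230774, and its annotated exons fall into 3 blocks with 851 bases in all. GRPR (ENSG00000126010) lies on the plus strand of chromosome X, from 16123556 to 16153021, also in 3 exon blocks, with 1929 bases in all. Both positions are from GENCODE release 29 on GRCh38. The 250 bases before each start in RefSeq (GRCh38.p14, plus strand), chr18:59219908-59220157 for GRP and chrX:16123315-16123564 for GRPR, are shown because these genes stood in different orders over the genotypes. Capitals mark the core of a cAMP response element, TGACGT, read on either strand and hence printed as its reverse complement in GRP. In GRP they also mark a TATA box with the letters TATAAA.
GRP: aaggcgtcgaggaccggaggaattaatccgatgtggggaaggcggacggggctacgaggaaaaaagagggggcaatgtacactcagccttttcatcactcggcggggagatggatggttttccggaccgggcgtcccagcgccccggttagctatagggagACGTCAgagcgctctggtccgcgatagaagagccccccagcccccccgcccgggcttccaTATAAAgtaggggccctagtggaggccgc
GRPR: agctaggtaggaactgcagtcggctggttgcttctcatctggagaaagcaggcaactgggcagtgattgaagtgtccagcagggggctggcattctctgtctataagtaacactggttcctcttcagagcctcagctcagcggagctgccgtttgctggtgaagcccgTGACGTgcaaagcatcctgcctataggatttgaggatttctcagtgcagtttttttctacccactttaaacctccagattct
The GRP stretch held 21 CpG dinucleotides and 62.4% G and C, and the GRPR stretch held 5 CpG and 50.8%. The median of 35116 RefSeq promoter stretches of the same length was 11 CpG, with 69.8% of them holding fewer CpG than GRP and 34.3% fewer than GRPR. TGACGT began 89 bases before the start of GRP and 82 bases before that of GRPR, and it occurred in 7.1% of all stretches on either strand. TATAAA was in GRP alone, 29 bases before its start, and occurred in 10.7% of all stretches on either strand. The motifs do not overlap and were picked with the sequences in view, so each match is only a description.

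Library totals ran from 11854173 counts (homozygous replicate 1) to 37519729 (wild type replicate 1). CHD7 itself stood at 189.2 to 194.9 CPM (counts scaled to the effective size of each library) in wild type, 110.4 to 130.5 in heterozygous and 43.0 to 56.1 in homozygous libraries, so the targeted gene's RNA followed the labels. The endoderm markers SOX17 and CXCR4 were present in all libraries, with SOX17 at 717 ± 15.0, 619 ± 52.6 and 630 ± 40.9 CPM in wild type, heterozygous and homozygous cells (SD, n = 3 each). Summed levels of the 12 endoderm markers were 11460 to 12310, 9625 to 10590 and 7831 to 8886 CPM in the same order. CER1 was the largest part of each sum, with means of 7245, 6124 and 4630 CPM. Of the 12, 0 rose and 5 fell in homozygous against wild type cells by edgeR's quasi-likelihood test. They were the transcription factors FOXA1 (20.6 to 2.68 CPM, log2 fold change -2.93, adjusted p = 2.16e-06), FOXA2 (-0.55, adjusted p = 0.00303), MIXL1 (-0.54, adjusted p = 0.00192) and HHEX (-0.44, adjusted p = 0.0124, and 0.0617 without wild type replicate 2) and the secreted inhibitor CER1 (-0.65, adjusted p = 0.00257). FOXA1 also fell in heterozygous cells (-0.83 against wild type, adjusted p = 0.0266), a result that did not hold without wild type replicate 1 or 3 or any 1 heterozygous library (adjusted p from 0.0597 to 0.1125). The part of these markers in the levels of GRP and GRPR was not tested.

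The receptor GRPR was highest in homozygous cells. In wild type cells its level was 3.51, 2.03 and 2.28 CPM in replicates 1 to 3, from 131, 62 and 55 counts. In heterozygous cells it was 7.72, 8.99 and 8.48 CPM, from 237, 246 and 200 counts. In homozygous cells it was 38.5, 28.5 and 34.8 CPM, from 460, 860 and 697 counts. The 3 genotypes do not overlap, and the gap between heterozygous and homozygous libraries is wider than the spread within any genotype. The means were 2.61 ± 0.792, 8.39 ± 0.641 and 33.9 ± 5.04 CPM (SD, n = 3). Heterozygous cells differed from wild type by a log2 fold change of 1.66 (SE 0.19), and homozygous from heterozygous cells by 2.01 (SE 0.18). Between the end genotypes it was 3.67 (SE 0.20), a 12.7-fold difference. Among the genes with a mean of at least 5 CPM in the higher genotype, this difference was the 12th highest of 11026 log2 fold changes, and the heterozygous difference from wild type was the 20th highest of 10982. GRPR was chosen by this rise, and with 2.61 CPM in wild type it reached 5 CPM only through the higher genotype. The ranks are therefore only a description.

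The ligand GRP was lowest in heterozygous cells. Its level in wild type cells was 7.91, 11.7 and 12.0 CPM, from 295, 358 and 288 counts. In heterozygous cells it was 4.75, 4.28 and 5.17 CPM, from 146, 117 and 122 counts. In homozygous cells it was 7.44, 8.67 and 9.27 CPM, from 89 to 262 counts. All heterozygous libraries lie below the other 6, while the wild type and homozygous libraries overlap, wild type replicate 1 standing among the homozygous values. The means were 10.5 ± 2.28, 4.73 ± 0.448 and 8.46 ± 0.936 CPM (SD, n = 3). Heterozygous cells differed from wild type by a log2 fold change of -1.15 (SE 0.18), a 2.22-fold difference, and homozygous from heterozygous cells by 0.85 (SE 0.18). For homozygous against wild type it was -0.30 (SE 0.17), with -0.48 without wild type replicate 1 and -0.05 after all libraries were thinned to the smallest total.

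**Figure D1:**
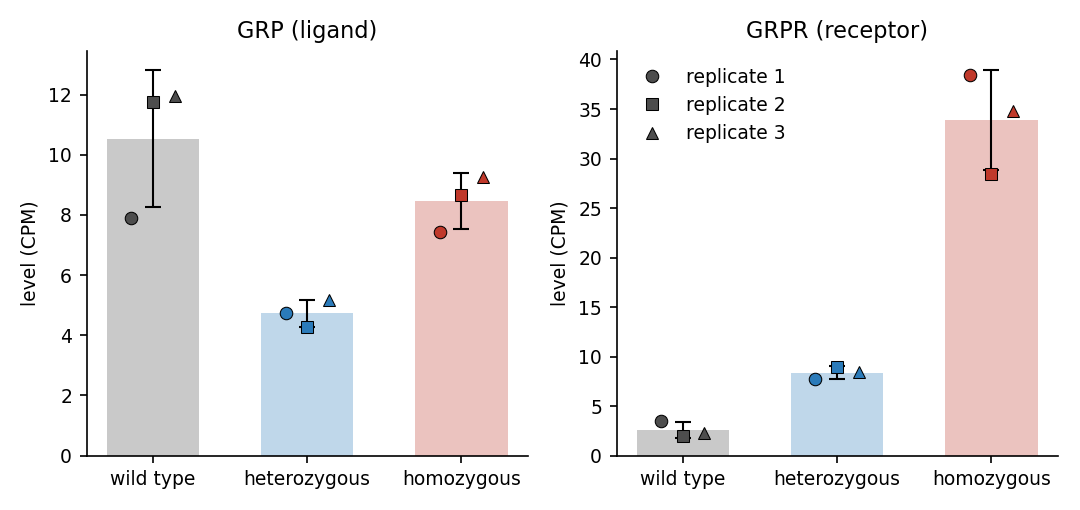
Level of GRP (left) and GRPR (right) in CPM, with bars at the mean of 3 libraries, error bars of 1 SD and 1 point per library, shaped by replicate number. The 3 heterozygous GRP points lie at 4.28 to 5.17 CPM under the other 6, and the GRPR points go from 2.03 to 3.51 CPM in wild type to 28.5 to 38.5 CPM in homozygous libraries.

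Within a genotype, the library with the most receptor RNA had the least ligand RNA in all 3 genotypes. This was replicate 1 of wild type and homozygous cells and replicate 2 of heterozygous cells. Homozygous replicate 1 is also the shallowest library. Depth as a part of these differences was checked by thinning every library to the smallest total. The log2 fold change of GRPR between homozygous and wild type was 3.52 to 3.97 over all alternatives, thinning included. The GRP difference between homozygous and heterozygous went from 0.85 to 1.20 after thinning. This was the largest move of the 6 log2 fold changes of the pair over all alternatives.

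Levels of the ligand and receptor genes were compared per kilobase of exon. GRP stood at 9.30, 13.8 and 14.1 CPM per kilobase in wild type, 5.59, 5.02 and 6.08 in heterozygous and 8.74, 10.2 and 10.9 in homozygous libraries. GRPR stood at 1.82, 1.05 and 1.18 CPM per kilobase in wild type, 4.0, 4.66 and 4.40 in heterozygous and 19.9, 14.8 and 18.02 in homozygous libraries. Wild type cells thus held more ligand than receptor RNA, and homozygous cells more receptor than ligand RNA. The receptor-to-ligand ratio was 0.196, 0.0764 and 0.0843 in wild type, 0.716, 0.928 and 0.723 in heterozygous and 2.28, 1.45 and 1.65 in homozygous libraries. No library of 1 genotype reached the ratio of another. Heterozygous libraries came closest to equal RNA of both genes, still with less receptor than ligand in each. The ratio uses the levels by which these genes were chosen, so this separation is only a description. RNA levels are not peptide or receptor protein levels, which were not measured.

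**Figure D2:**
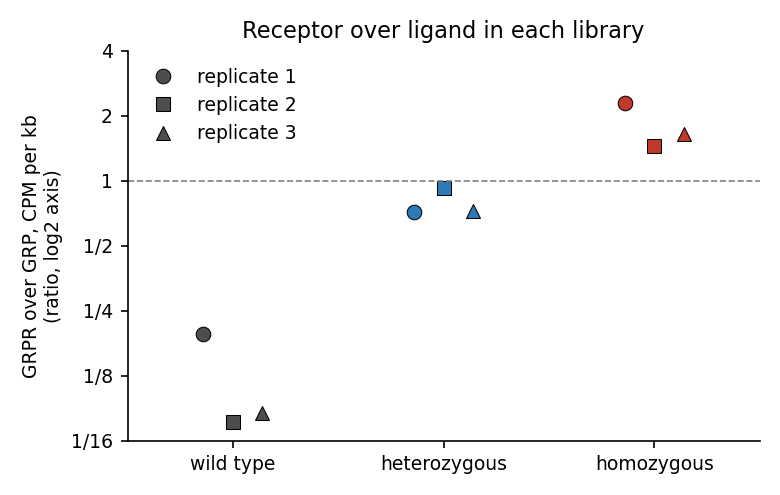
Ratio of GRPR to GRP in CPM per kilobase of exon, on a log axis, with 1 point per library and a dashed line at equal levels. All wild type and heterozygous points lie under the line, between 0.0764 and 0.928, and the homozygous points lie above it, between 1.45 and 2.28.

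Of the other genes of the family, NMB, the ligand of NMBR, stood at 3.79 ± 0.430, 4.33 ± 0.936 and 4.74 ± 1.39 CPM in wild type, heterozygous and homozygous cells (SD, n = 3). None of its comparisons was called by edgeR's quasi-likelihood test with Benjamini-Hochberg adjustment over all genes tested (adjusted p from 0.368 to 0.762), the test behind every call and adjusted p that follows. NMBR had 0 to 3 counts per library, fell under the filter and was not tested. BRS3 was not analysed here. So GRPR was the only bombesin receptor of those analysed with more than 3 counts in any library.

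Over all genes tested, homozygous against wild type called 589 higher genes (3.50%) and 704 lower genes (4.18%). Heterozygous against wild type called 138 higher (0.820%) and 175 lower (1.04%). Homozygous against heterozygous called 166 higher (0.986%) and 206 lower (1.22%). With upper quartile scaling the balance turned to 712 higher and 607 lower for homozygous against wild type. The median log2 fold change of all genes was 0.01, 0.00 and 0.01 in the same order. These edgeR shares are the background for the lists of genes in the ligand's and receptor's pathway. The share of all genes at an unadjusted p below 0.05 was not counted, so list counts at that threshold stand without a background.

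Of 17 genes that process or degrade peptide precursors, 14 were tested, and 2 rose and 2 fell in homozygous against wild type cells (median log2 fold change -0.13). PCSK2, a prohormone convertase of the regulated secretory pathway, was at 0.268, 0.722 and 0.581 CPM in wild type, 1.40, 1.13 and 2.16 in heterozygous and 4.76, 5.63 and 8.58 in homozygous libraries. Like GRPR, it stood in 3 steps that do not overlap. Over all genes tested, 165 (0.980%), these 2 counted, stood so and were called between the end genotypes. PCSK2 rose in homozygous against wild type cells (log2 fold change 3.63, SE 0.37, adjusted p = 5.78e-05) and against heterozygous cells (2.03, SE 0.32, adjusted p = 0.00534), while heterozygous against wild type was 1.60 (SE 0.39, adjusted p = 0.0646). QPCT, which forms the pyroglutamate end of some peptides, was at 0.0731 to 0.215 CPM in the 6 wild type and heterozygous libraries and at 2.51, 3.48 and 0.898 CPM in homozygous ones. It rose in homozygous against wild type cells (3.80, SE 0.53, adjusted p = 0.000744). MME, or neprilysin, which degrades GRP outside the cell, fell from 22.2 ± 2.45 to 12.1 ± 2.26 CPM (-0.89, SE 0.14, adjusted p = 0.00189), with heterozygous cells at 16.1 ± 1.25 CPM.

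CPE, the carboxypeptidase that trims cut precursors, fell in homozygous against wild type cells (-0.32, adjusted p = 0.0326). This call was lost without any 1 of the wild type libraries or homozygous replicates 1 or 2 (adjusted p from 0.0718 to 0.148). FURIN, a convertase of the constitutive pathway, stood at 112, 115 and 101 CPM in wild type, heterozygous and homozygous cells and was not called (adjusted p = 0.291 between the end genotypes). PAM, the amidating enzyme, stood at 51.1, 43.7 and 42.4 CPM (adjusted p = 0.125). PCSK1, the other convertase of the regulated pathway, had 5 counts over all libraries. Heterozygous against wild type called 0 of the 14 genes with edgeR (5 at an unadjusted p below 0.05, 0 with limma-voom and 2 with DESeq2).

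Genes of the Gq pathway act downstream of GRPR. Of 37 listed genes 36 were tested, and homozygous against wild type called 2 higher and 1 lower with edgeR (median log2 fold change 0.02). This count is near edgeR's background over all genes. In the same comparison 13 were at an unadjusted p below 0.05, and limma-voom called 4 and DESeq2 9. Over all 16837 genes limma-voom called 1325 and DESeq2 1765. The share of the list was thus above the background with both, more so with DESeq2, and was not tested. The G protein subunits that couple to GRPR were present in all genotypes, GNAQ at 98.1, 96.3 and 86.6 CPM and GNA11 at 84.1, 71.1 and 78.5 CPM in wild type, heterozygous and homozygous cells, neither called. PLCB1, a phospholipase C-beta that Gq activates, fell from 5.81 to 2.87 CPM (-1.004, SE 0.19, adjusted p = 0.00568). Its relative PLCB3 rose from 127 to 158 CPM (0.32, SE 0.08, adjusted p = 0.0243), but not if wild type replicate 2 or 3 or homozygous replicate 1 or 2 was left out (adjusted p from 0.0539 to 0.133). RGS4, which shortens Gq signalling, rose from 0.171 to 1.01 CPM (2.52, SE 0.51, adjusted p = 0.00825), from summed counts of 15 and 57. Both comparisons of heterozygous cells called 0 of 36 with edgeR. Each had 8 genes at an unadjusted p below 0.05 and 0 with limma-voom, with 1 and 2 called by DESeq2.

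Genes that respond to ERK and calcium signalling were lower where they were called. Of 25 listed genes 21 were tested, and in homozygous against wild type cells 0 rose and 4 fell (median log2 fold change -0.35). ATF3, a stress-inducible transcription factor, fell from 59.8 ± 5.82 to 24.8 ± 2.33 CPM (-1.27, SE 0.13, adjusted p = 6.28e-05), and it also fell against heterozygous cells (46.6 ± 8.19 CPM, adjusted p = 0.00252). SPRY2 and DUSP6, both feedback inhibitors of ERK signalling, fell by 0.56 (adjusted p = 0.00299) and 0.75 (adjusted p = 0.00691) on the log2 scale. The early growth response genes FOS and EGR1 were not called (adjusted p = 0.639 and 0.488). IER3 was at the threshold (-0.44, adjusted p = 0.0495), and its adjusted p was 0.0505 to 0.198 under the 11 alternatives that lost the call, among them leaving out wild type replicate 2 or 3, heterozygous replicate 2 or homozygous replicate 1 or 2. In heterozygous against wild type cells 0 rose and 1 fell, DUSP4 (-0.55, adjusted p = 0.0362). That call was lost without wild type replicate 2 or 3, any heterozygous library or homozygous replicate 1 (adjusted p from 0.0532 to 0.199).

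**Figure D3:**
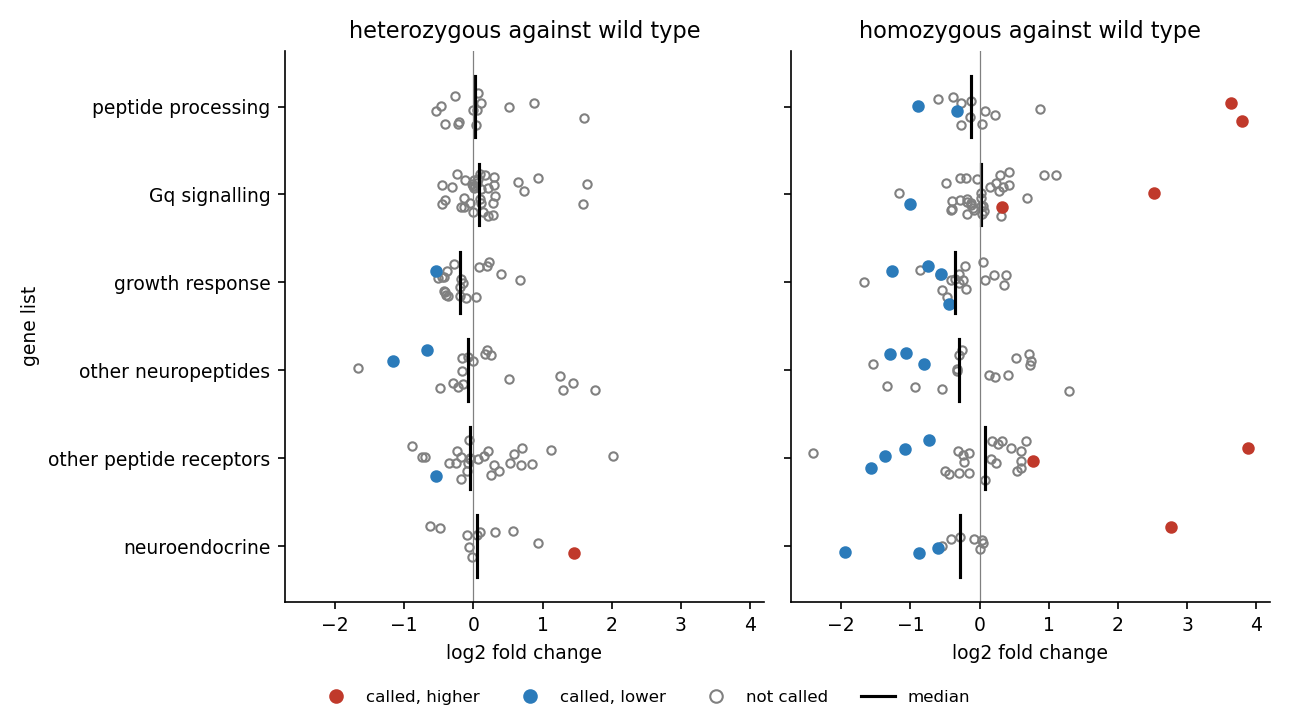
Log2 fold change of each tested gene in 6 lists, for heterozygous against wild type (left) and homozygous against wild type (right), with GRP and GRPR left out. Filled points were called higher or lower and bars mark medians, from -0.35 for growth response to 0.08 for other peptide receptors on the right.

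Other peptide systems were set beside GRP and GRPR. Of 54 precursors of other neuropeptides and gut peptides, 19 were tested, and in homozygous against wild type cells 0 rose and 3 fell (median -0.30). ADM, the precursor of the vasodilator adrenomedullin, fell from 53.1 ± 2.41 to 21.5 ± 2.60 CPM (-1.30, SE 0.12, adjusted p = 3.10e-05). In heterozygous cells ADM was at 33.2 ± 4.74 CPM, below wild type (-0.68, adjusted p = 0.00884). NMU, which encodes neuromedin U, fell from 15.3 to 8.67 CPM (-0.80, SE 0.16, adjusted p = 0.0076). NPPB, the natriuretic peptide B gene, was called lower in heterozygous (-1.16, adjusted p = 0.0405) and homozygous cells (-1.07, adjusted p = 0.0232). Both NPPB calls were lost without wild type replicate 2 or 3, and further without homozygous replicate 1 or 2, or any heterozygous library, of the genotype compared (adjusted p from 0.0714 to 0.196).

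Of 62 other peptide receptors, 27 were tested, and in homozygous against wild type cells 2 rose and 4 fell (median 0.08). SSTR2, a somatostatin receptor that couples to inhibitory G proteins, rose from 37.9 ± 4.37 to 65.0 ± 5.06 CPM (0.78, SE 0.10, adjusted p = 0.000471) and was at 36.7 ± 1.92 CPM in heterozygous cells. GPR37L1, an orphan receptor related to the endothelin receptors, was called higher on summed counts of 3 in wild type and 34 in homozygous libraries. Its relative GPR37 fell from 56.7 ± 5.42 to 26.9 ± 0.101 CPM (-1.08, SE 0.09, adjusted p = 2.14e-05). In heterozygous cells GPR37 was lower by 0.54 on the log2 scale (adjusted p = 0.00866), which no longer passed without wild type replicate 3 or heterozygous replicate 2 (adjusted p = 0.052 and 0.0762). The calcitonin receptor CALCR fell by 0.74 (adjusted p = 0.00157) and the kappa opioid receptor OPRK1 by 1.57 (adjusted p = 0.00437) on the log2 scale. NPFFR2, a receptor of neuropeptide FF, was the fourth (adjusted p = 0.036). Its call was lost in the 6-library fit and without any 1 of 7 libraries, the exceptions being heterozygous replicate 3 and homozygous replicate 2 (adjusted p from 0.0502 to 0.102).

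GRP marks neuroendocrine cells, so markers of these cells were read beside it. The transcription factors NEUROD1 and NEUROG3 were not analysed here, and the 15 markers counted summed to 753 to 778 CPM in wild type, 704 to 784 in heterozygous and 747 to 908 in homozygous libraries. UCHL1 alone held most of each sum, with means of 656, 616 and 679 CPM in the same order. Of 11 tested, 1 rose and 3 fell in homozygous against wild type cells (median -0.28). STMN2, a neuronal tubulin-binding protein, was at 8.37, 7.05 and 6.06 CPM in wild type, 19.8, 17.5 and 22.2 in heterozygous and 55.2, 46.5 and 46.5 in homozygous libraries. It rose in all 3 comparisons, by 2.77 (SE 0.14, adjusted p = 1.59e-07) between the end genotypes. SYT1, a calcium sensor of secretory vesicles, fell by 1.95 on the log2 scale (SE 0.21, adjusted p = 7.98e-05). CHGA, which encodes the granule protein chromogranin A, fell by 0.60 (adjusted p = 0.0225, and 0.0529 to 0.124 without wild type replicate 2 or 3 or homozygous replicate 1 or 2). CADPS, a vesicle-priming factor, fell by 0.88 (adjusted p = 0.0139, and 0.0533 without wild type replicate 1). In homozygous against heterozygous cells, where GRP was higher, 1 of the 11, STMN2, rose and 4 fell (median -0.38). Those that fell were SYT1 (-1.32, adjusted p = 0.00553), SCG3 (-0.98, adjusted p = 0.0199), CADPS (-0.86, adjusted p = 0.037) and RIMS2 (-0.86, adjusted p = 0.037). The calls of SCG3, CADPS and RIMS2 were each lost under some alternatives (adjusted p from 0.0548 to 0.138). SCG2 had 0 counts in homozygous libraries, but it did not pass the filter on low counts and was not tested.

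Markers of other cell types were read in the same libraries. Summed levels of 8 trophoblast and amnion markers were 10.1 to 12.99, 13.6 to 14.1 and 23.6 to 31.4 CPM in wild type, heterozygous and homozygous libraries. TFAP2C held most of each sum, with means of 9.71, 12.1 and 22.6 CPM. CDX2 and CGA, listed with these markers, were not analysed here, and 2 of 3 tested genes, GATA3 and TFAP2C, rose in homozygous against wild type cells (adjusted p = 0.00233 and 0.000216). Mesoderm markers summed to 52.9 to 69.4, 41.0 to 48.8 and 28.9 to 43.0 CPM, with 1 of 5 tested, KDR, lower in homozygous against wild type cells (-1.05, adjusted p = 0.00419). KDR was also the largest part of each sum. Pluripotency markers summed to 3910 to 4014, 3604 to 3931 and 3450 to 3638 CPM, a sum held mostly by LIN28A and TDGF1. In homozygous against wild type cells 1 of 9, TDGF1, was called lower (-0.25, adjusted p = 0.0494), but 14 alternatives lost the call (adjusted p from 0.0528 to 0.198), including leaving out any library other than heterozygous replicate 3. In heterozygous against wild type cells, where GRP was low, the median log2 fold change of the 9 was 0.25, with POU5F1 at 159 ± 39.4 CPM against 69.6 ± 22.3 CPM in wild type (adjusted p = 0.158). There edgeR called 0 of 9, with 5 at an unadjusted p below 0.05, and limma-voom called 0 and DESeq2 1. Markers of primitive and visceral endoderm summed to 1668 to 1858, 1623 to 1744 and 1523 to 2029 CPM, a sum held mostly by COL4A1 and SPARC. HNF4A rose in homozygous against wild type cells (0.77, adjusted p = 0.000873) as 1 of 7 tested. SOX7 had 0 counts in homozygous libraries, but it did not pass the filter and was not tested. Neuroectoderm markers summed to 1075 to 1098, 1021 to 1033 and 910.4 to 1006 CPM, with 0 of 7 called by edgeR or limma-voom, 3 at an unadjusted p below 0.05 and 2 by DESeq2. OTX2 and NES held most of each sum. The part of these cell types in the levels of GRP and GRPR was not tested.

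Genes within 1 Mb of GRPR were examined for the same steps. Of 20 such genes counted 15 were tested, and 1 rose and 0 fell in homozygous against wild type cells, with a median log2 fold change of 0.06. The gene that rose was MAGEB17, a MAGE-family gene on the plus strand of chromosome X from 16167481 to 16171464, which starts 14.5 kb after GRPR ends. MAGEB17 had 1, 2 and 3 counts in wild type, 15, 5 and 3 in heterozygous and 23, 48 and 24 in homozygous libraries. Its log2 fold change was 4.45 (SE 0.57, adjusted p = 0.000389) for homozygous against wild type. It was 2.47 (SE 0.46, adjusted p = 0.0161) for homozygous against heterozygous, a call lost without heterozygous replicate 2 or 3 or homozygous replicate 2 (adjusted p from 0.0513 to 0.0945).

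An antisense gene with no symbol (ENSG00000238178), on the minus strand from 16152941 to 16170869, spans the interval between GRPR and MAGEB17. Its exons share 81 bases with those of GRPR (4.20% of the exon bases of GRPR) and 416 bases with those of MAGEB17 (25.8% of the exon bases of MAGEB17). It stood at 143, 150 and 124 CPM in wild type, heterozygous and homozygous cells and was not called between the end genotypes (-0.20, adjusted p = 0.213). No source used here gives the strand setting of the counting, and without strand, reads from the shared bases cannot be assigned to either gene. AP1S2, the tested gene before GRPR, was not called (adjusted p = 0.269).

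Around GRP, 16 genes were counted and 10 were tested, and 0 rose and 1 fell in homozygous against wild type cells. The gene that fell was NEDD4L, a ubiquitin ligase of membrane channels, 818.6 kb before GRP (96.3 ± 4.65 to 56.5 ± 2.08 CPM, -0.77, SE 0.08, adjusted p = 6.34e-05), with heterozygous cells between at 82.2 ± 4.09 CPM. Heterozygous against wild type, the comparison in which GRP was low, called 0 of the 10 with edgeR or limma-voom, with 4 at an unadjusted p below 0.05 and 1 called by DESeq2. The adjacent genes SEC11C, a signal peptidase subunit, and RAX, an eye-field transcription factor, were not called in any comparison.

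**Figure D4:**
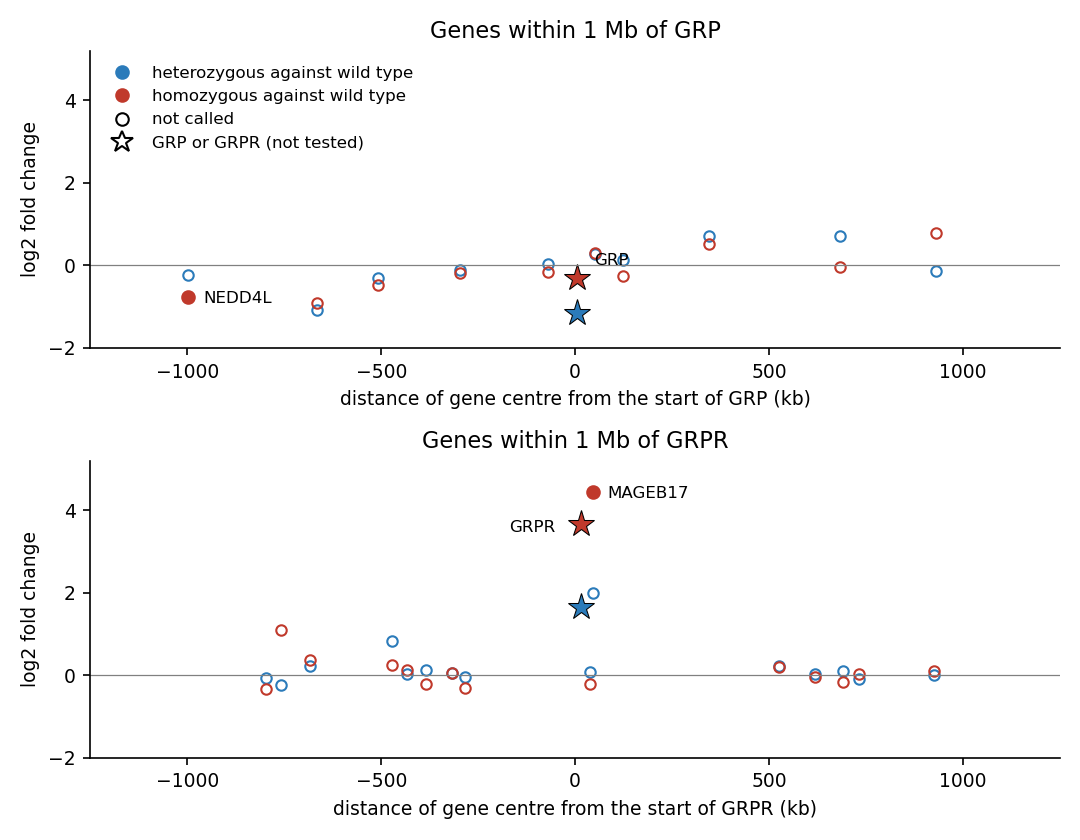
Log2 fold change of genes within 1 Mb of GRP and of GRPR against the distance of each gene's centre from the start of GRP or GRPR in kb, for heterozygous and homozygous against wild type. Filled points were called, open points were not, and stars are GRP and GRPR, which were not tested. Near GRPR the called gene is MAGEB17, at 4.45, and near GRP it is NEDD4L, at -0.77.

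As the background of the X-linked GRPR, 611 X-linked genes were tested. In homozygous against wild type cells 32 of them rose (5.24%) and 46 fell (7.53%), with a median log2 fold change of 0.00, and in heterozygous against wild type cells 10 rose (1.64%) and 28 fell (4.58%). Over all genes tested the shares were lower, 3.50% and 4.18% in the first comparison and 0.820% and 1.04% in the second. The difference was not tested.

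The genes whose levels ran most like those of GRP and GRPR were ranked by Pearson's r of log2 CPM over the 9 libraries among 10560 protein-coding genes. These libraries share the 3 genotypes, so the points are not independent, and no p is given. For GRPR the leading genes were HECW1, a ubiquitin ligase (r = 0.996), MCF2L (0.99), GARIN1B (0.99), STMN2 (0.989) and CPS1, the first enzyme of the urea cycle (0.986). CPS1 stood at 15.0, 31.2 and 63.0 CPM over wild type, heterozygous and homozygous cells. EHBP1L1 (-0.981), the mitochondrial chaperone HSPA9 (-0.974) and the glutaredoxin GLRX2 (-0.973) ran most opposite.

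For GRP the leading genes were IRX2, a homeobox factor (r = 0.979), PIGH, of GPI anchor synthesis (0.971), ZNF69 (0.943), MCCC1, of leucine breakdown (0.942), and VIPR2, a receptor of vasoactive intestinal peptide (0.931). IRX2 stood at 26.7, 17.8 and 25.2 CPM and ZNF69 at 17.0, 3.55 and 11.6 CPM over wild type, heterozygous and homozygous cells. TMEM200A (-0.979), the mechanosensitive channel PIEZO2 (-0.969) and the class II antigen gene HLA-DQB1 (-0.967) ran most opposite, with HLA-DQB1 at 37.2, 79.6 and 47.6 CPM.

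**Figure D5:**
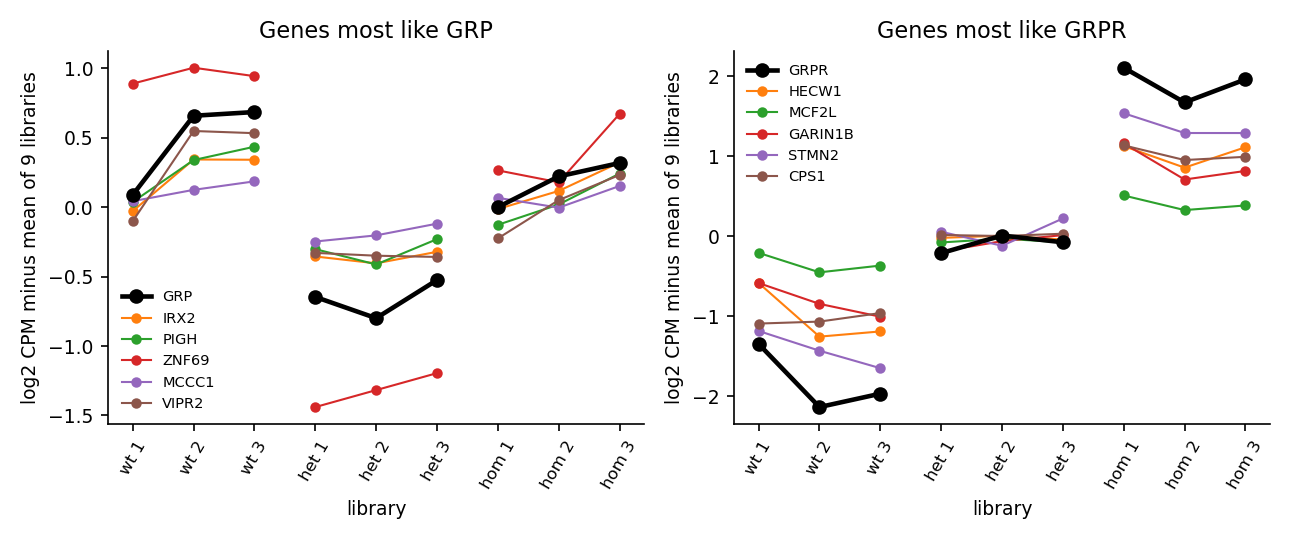
Log2 CPM of GRP (left) and GRPR (right), each centred on its mean, beside the 5 genes most like it, over the 9 libraries grouped by genotype. The GRP panel dips in the 3 heterozygous libraries and the GRPR panel steps up with each genotype. Lines join libraries of 1 genotype and carry no order in time.

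Over all genes tested, 26 stood in the order of GRP (0.154%), GRP itself counted, with all heterozygous libraries below the other 6 and calls in both comparisons of heterozygous cells, and 13 stood the opposite way. In the order of GRPR, 165 genes (0.980%), GRPR itself counted, stood in 3 rising steps without overlap and differed by the test between the end genotypes, of which 22 were called in all 3 comparisons. The opposite stepwise order was held by 181 genes. The place of GRP and GRPR in these counts follows from how they were chosen. Of the 118 tested genes of the bombesin, processing, Gq, growth response, neuropeptide and receptor lists other than GRP and GRPR, 0 stood as GRP did and 2, PCSK2 and GPR37L1, stood as GRPR did.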

How the data were processed

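Definitive endoderm made from H9 cells was sequenced as RNA, and the authors deposited raw read counts per gene with 1 column per library. Per the submitters' processing notes, FastQC, Trimmomatic, HISAT2, SAMtools and HTSeq were used with build hg38. No source used here gives their versions and roles, the annotation release or the strand setting. Genotypes came from the labels.

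The edgeR 4.0.16 package (R 4.3.3) was used. The filter filterByExpr left 16837 of 26240 genes. TMM factors (0.973 to 1.01) scaled the counts, which entered the two-sided quasi-likelihood test on all 9 libraries, with genotype as the only factor. Benjamini-Hochberg adjustment ran over all genes tested, and a gene was called below 0.05. Each SE is the absolute log2 fold change divided by the square root of the F statistic of this test. For GRP and GRPR it is given only as a description. The code was tested on simulated counts. CPM uses the TMM-adjusted total. Replicates differed by more than sampling noise (chi-square per degree of freedom 2.70 to 34.3) and each counted as 1.

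The ligand and receptor and the gene lists were chosen with earlier results of these data known. Named genes are GRP and GRPR, up to 6 called genes per list and comparison, called or adjacent genes within 1 Mb, and the 5 most and 3 least alike. A few uncalled ones, such as FURIN and GNAQ, were added for their roles, and ALPK2 as the lowest neighbour of GRP in heterozygous against wild type cells. Likeness used a prior count of 2 and genes of at least 5 CPM in the highest genotype. Alternatives were other scalings and filters, limma-voom (limma 3.58.1), DESeq2 1.42.0, 6-library fits, a replicate block, thinning and leaving out each library.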

Additional observations from a re-analysis of the deposited data

How the results depend on the processing

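GRP and GRPR kept the direction of their 6 log2 fold changes under all 18 alternatives. Some values moved by more than their SE, such as GRPR for heterozygous against wild type, from 1.66 (SE 0.19) to 1.96 without wild type replicate 1. The largest move was that of GRP in homozygous against heterozygous cells, from 0.85 to 1.20 after thinning, for which the cause was not tested. GRPR ranged from 3.52 to 3.97 for homozygous against wild type. GRP ranged from -0.48 to -0.05 for the same comparison and from -1.33 to -1.05 for heterozygous against wild type.

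Counts of called genes depended more on the settings. Homozygous against wild type called 1293 genes, and 651 (without wild type replicate 2) to 2118 (without homozygous replicate 3) with 1 library left out. Heterozygous against wild type called 313. It called 604 in a fit of its 6 libraries, 574 with DESeq2, and 130 (without wild type replicate 3) to 624 (without homozygous replicate 3) with 1 library left out. Homozygous against heterozygous called 372, but 177 in its own 6-library fit, 849 with DESeq2, and 141 (without heterozygous replicate 2) to 377 (without homozygous replicate 3) with 1 library left out. With the replicate number as a block the counts were 1503, 492 (264 higher and 228 lower, against 138 and 175) and 461. Deviations of same-numbered libraries from their genotype means had correlations from -0.42 to 0.48, with 4 of 9 above 0.1. With 3 libraries per genotype these deviations depend on each other, so whether the numbers pair the libraries could not be decided. For 210 fold changes of other named genes, each recomputed under the alternatives that gave a value, a call was lost 156 times, gained 84 times and kept as it was 3316 times. Called values kept their sign, while 19 uncalled ones changed sign under at least 1 alternative. Genes of few counts, such as MAGEB17, RGS4 and GPR37L1, are limited by depth, as is homozygous replicate 1, the shallowest library.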

Other observations

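The genes that stood in the order of GRP or GRPR were described by family, a choice made after their names were seen. The 26 genes in the order of GRP, itself included, were lowest in heterozygous cells. Of these, 8 (30.8%) were zinc finger genes with a ZNF symbol, ZNF69 and ZNF737 among them, against 505 (3.0%) of all genes tested. A further 3 (11.5%) were clustered protocadherins, adhesion proteins of neurons (PCDHA6, PCDHA10 and PCDHGB4), against 31 (0.184%) of all genes. Both families have many similar members, and how reads that fit several of them were counted was not examined. Of the 165 genes in the order of GRPR, which itself is X-linked and included, 4 (2.42%) were ZNF genes and 14 (8.48%) were X-linked, against 611 (3.63%) of all genes. No test was made of these shares.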
